A study of Mus musculus with 3 samples.

Results

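The TAM receptors Tyro3, Axl and Mertk and their ligands Gas6 and Pros1 were followed in chromatin-associated RNA of mouse macrophages. The 5 genes were chosen by symbol, read from the transcript names of the read-based tables and joined to the gene tables by gene identifier, out of 55536 annotated genes. All 5 were found, 1 entry for each symbol, and all are annotated as protein coding. The libraries come from C57BL/6J bone-marrow-derived macrophages exposed to Lipid A at 100 ng/ml for 12 hours, washed and left for 12 hours, and exposed again to 100 ng/ml for 50 minutes. Lipid A is the part of bacterial lipopolysaccharide that Toll-like receptor 4 recognises. The 3 libraries, numbered as biological replicates 1, 2 and 3, form 1 group, so the values below are levels and not responses, and no untreated cells were analysed here. The labels give no sex or age and name 1 donor for the 3 libraries. They do not say that separate animals or cultures were used, and the SDs below may therefore hold technical variation alone. The labelled starting amounts were 1 µg, 250 ng and 500 ng of RNA in replicates 1, 2 and 3.

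TAM receptors are transmembrane tyrosine kinases with immunoglobulin and fibronectin domains outside the cell. Gas6 and protein S, the product of Pros1, are secreted proteins whose Gla domains, carboxylated with the help of vitamin K, bind phosphatidylserine on dying cells while the other end of the ligand binds the receptor. In macrophages these receptors are known for the uptake of apoptotic cells and for feedback on Toll-like receptor and interferon signalling, Mertk most of all in resting tissue macrophages and Axl in cells that have met interferon or Toll-like receptor ligands. Chromatin RNA holds transcripts that are still being made or are kept on chromatin, so introns contribute reads.

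The expected counts summed to 13897176 in replicate 1, 19597343 in replicate 2 and 19348626 in replicate 3. A chi-square test over genes with counts gave 41.6 to 103 per degree of freedom for the library pairs, so no pair was a repeat of the same library. All 10 macrophage markers were detected, with Adgre1 and Msr1 highest, at a summed level of 1224 to 1373 TPM per library. The 8 neutrophil markers summed to 0.2 to 0.58 TPM. The read-based tables listed Cxcr2 of that list at a mean of 4.05 TPM and Mpo at 1.01, and its other markers below 1 TPM. The 9 T and NK cell markers summed to 2.9 to 3.7 TPM. Of these, Cd4 was detected at 3.34, 2.59 and 3.02 TPM in replicates 1, 2 and 3. Cd3d, Cd3e, Cd3g, Cd2, Ncr1 and Klrb1c had 0 counts, though the read-based tables listed Cd3d at a mean of 15.7 TPM. The 10 megakaryocyte and erythroid markers summed to 7.4 to 12.3 TPM. Of these, Alas2 was detected at a mean of 5.55 TPM, 13.7 in the read-based tables, and Itga2b at 2.42. The 7 B cell markers summed to 1.47 to 3.26 TPM, with Cd22 detected at a mean of 1.87. Fcer2a of that list was at 0.303 TPM by alignment and 13.6 in the read-based tables. Levels are given in TPM, a relative abundance corrected for transcript length that sums to a fixed total per library and so allows genes to be set side by side. In bulk RNA, fewer cells that use a gene and less RNA per cell cannot be told apart.

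Mertk, Axl and Gas6 had at least 1 TPM in every library, the threshold used for detection, and Pros1 and Tyro3 did not. That is 3 of 5 members, where 39.2% of 22028 protein-coding genes and 20.2% of all annotated genes passed. Pros1 missed the threshold through replicate 1 alone. By mean TPM the order was Mertk, Axl, Gas6, Pros1 and Tyro3, and Axl and Gas6 were the neighbours in that order whose libraries overlapped.

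**Figure D1:**
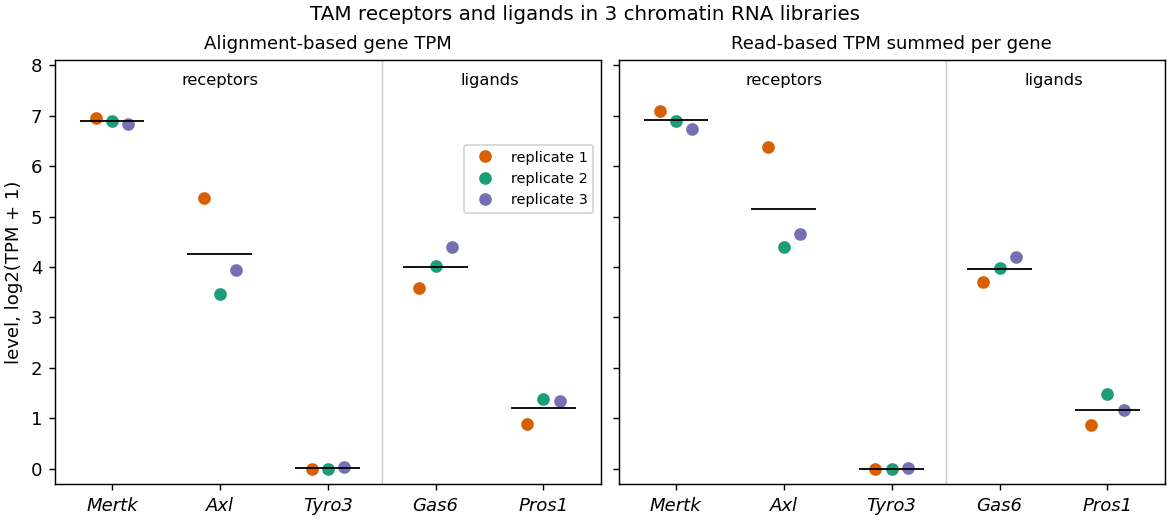
Level of each member as log2(TPM + 1) in the 3 libraries (coloured points) with the mean (line), from the alignment-based gene tables (left) and the read-based tables (right). Mertk sits near 7 with the libraries close together, Axl spreads from 10.1 to 40.2 TPM with replicate 1 highest, and Tyro3 lies at the bottom of the scale.

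Mertk was the highest member (ENSMUSG00000014361.5, mm10 chromosome 2, 128698956 to 128802894, plus strand). It encodes the receptor that macrophages use most for engulfment of apoptotic cells. Its level was 122 TPM in replicate 1, 117 in replicate 2 and 113 in replicate 3, from 6596, 8401 and 7400 expected counts. The mean was 118 ± 4.37 TPM (SD, n = 3), which placed Mertk at rank 471 of 22028 protein-coding genes, above 97.9% of them. The libraries were close together: the coefficient of variation of Mertk was 3.72%, against a median of 22.7% over 8638 detected protein-coding genes, and 2.18% of those genes varied less. Part of that closeness belongs to the TPM scale. In CPM, counts scaled to library size without length correction, Mertk stood at 475, 429 and 382, a coefficient of variation of 10.8%, where counting error alone gives 1.16%. The read-based tables gave 135, 118 and 106 TPM, again highest in replicate 1.

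In the alignment-based tables the RNA assigned to Mertk lay mostly in its full-length coding transcript. Mertk-201 held 111 TPM in replicate 1, 111 in replicate 2 and 104 in replicate 3, and a shorter entry without an open reading frame, Mertk-202, held 11.7, 5.88 and 9.43. The coding share of the gene's TPM was 92.4% ± 2.35 (SD, n = 3). That was higher than the share of 98.0% of the 5705 detected protein-coding genes with an annotated retained-intron transcript. Mertk itself has no such transcript, so the comparison sets unlike annotations side by side. Annotation bears on such shares: the shorter Mertk entry adds 34 bases of intron sequence to the model of Mertk-201, so reads from the other intron bases had no Mertk transcript to be assigned to. In the read-based tables Mertk-202 took more, 34.2, 24.3 and 18.3 TPM, and the coding share was 78.9% ± 4.06.

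The window of 250 bases before the start of Mertk that RefSeq gives (GRCm38.p6, chr2:128698665-128698914, plus strand) is shown because it belongs to the highest member. Capitals mark the GC box GGGCGG, the site letters of Sp1 family factors, searched on both strands.

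Mertk: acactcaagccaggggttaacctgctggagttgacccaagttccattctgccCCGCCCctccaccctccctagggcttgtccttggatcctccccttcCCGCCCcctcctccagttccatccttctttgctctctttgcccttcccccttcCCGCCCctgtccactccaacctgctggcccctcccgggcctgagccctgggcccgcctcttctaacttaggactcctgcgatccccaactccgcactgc

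The Mertk window held 3 GC boxes, where 32.7% of 32851 promoter windows of the same length held at least 1. Its GC content was 63.6% with 7 CpG, against medians of 52.4% and 6. None of the other letters searched was found in it: the PU.1 core GAGGAA, the interferon gamma activated sequence TTCNNNGAA, the AP-1 site TGANTCA and the core of the interferon-stimulated response element, GAAANNGAA. No match says only that these letters are not in the window.

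Axl was the member that differed most between libraries (ENSMUSG00000002602.16, chromosome 7, 25757273 to 25788705, minus strand). Axl encodes the TAM receptor with the highest affinity for Gas6. Its level was 40.2 TPM in replicate 1, 10.1 in replicate 2 and 14.4 in replicate 3, from 1017, 468 and 647 expected counts. Replicate 1 stood apart from the other libraries, and its deposited credible interval, 33.6 to 44.3 TPM, did not meet theirs, 8.46 to 13.7 and 12.1 to 18.9. The mean was 21.6 ± 16.3 TPM (SD, n = 3), rank 2549 among protein-coding genes, and 99.5% of detected protein-coding genes had a lower coefficient of variation than its 75.5%. Without replicate 1 the mean was 12.2 TPM. Counting error does not reach that spread: it gives a coefficient of variation of 3.75%, while the CPM of Axl varied by 60.1%.

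On the log2(TPM + 1) scale replicate 1 exceeded the mean of the other libraries by 1.64, a 3.11-fold difference that was larger than that of 99.8% of detected protein-coding genes. Axl was 1 of 56 of these 8638 genes, 0.648%, with a replicate 1 level at least 2-fold above both other libraries. Mertk was at 1.06-fold and Gas6 at 0.643-fold of the other libraries by the same measure. The neighbouring gene Hnrnpul1, on the same strand beyond the end of Axl, stood at 25.8, 27.3 and 22.6 TPM in replicates 1, 2 and 3.

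The size of the Axl difference depended on which Axl RNA was counted. In raw TPM ratios replicate 1 was 3.28-fold above the mean of replicates 2 and 3, in CPM 2.55-fold. Protein-coding Axl transcripts stood at 12.4, 5.7 and 8.96 TPM in replicates 1, 2 and 3, a ratio of 1.70. Axl entries annotated as retained introns stood at 27.8, 4.37 and 5.47 TPM, a ratio of 5.65, and at 23.5, 2.84 and 2.54 CPM, a ratio of 8.75. Replicate 1 was highest in both classes, and the gap was wider in the retained-intron class. Of the gene's expected counts, that class held 32.2%, 11.9% and 7.61% in replicates 1, 2 and 3. A single entry of the class, Axl-205, held 22.4%, 8.68% and 4.66%.

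**Figure D2:**
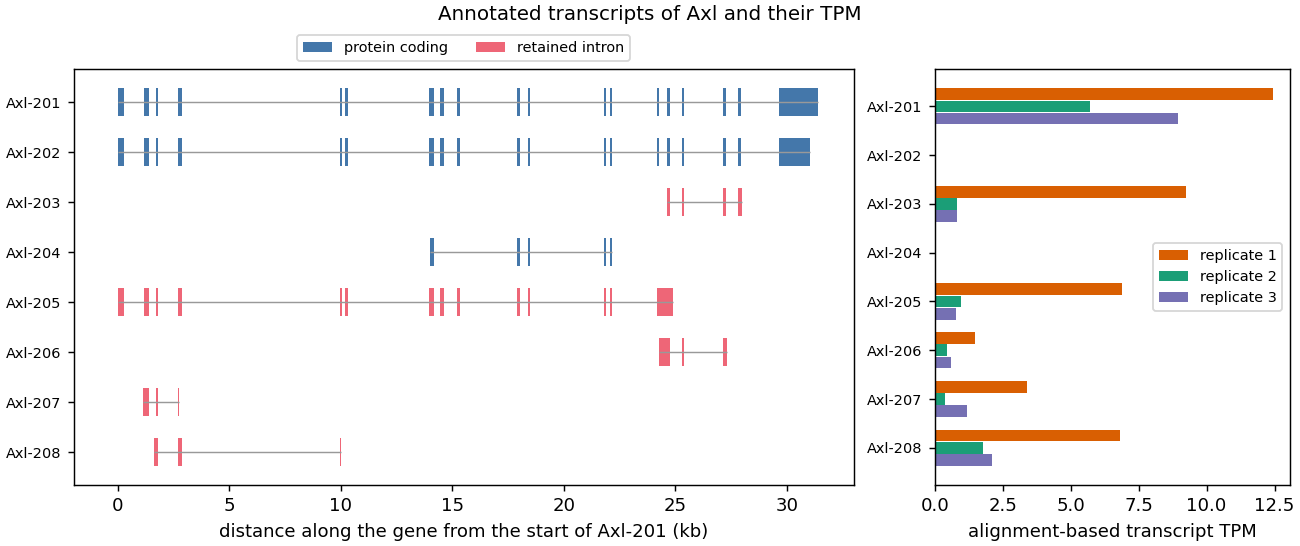
Annotated transcripts of Axl drawn by distance from the start of Axl-201 in kb (left; boxes are exons, lines introns) and the alignment-based TPM of each in the 3 libraries (right). Each of the 5 retained-intron entries and Axl-201 is highest in replicate 1, and Axl-202 and Axl-204 are listed at 0.

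The intron bases of the retained-intron entries of Axl lie in the first and the last introns of the gene. Toward the 5′ end, Axl-207 keeps 56 bases of intron 1 and held 3.38, 0.39 and 1.19 TPM in replicates 1, 2 and 3. Axl-208 keeps 79 bases of intron 2 and held 6.81, 1.76 and 2.1 TPM. Axl-205, which runs from the start of the gene through 14 exons, contains intron 15 whole and 149 bases of intron 16, and held 6.89, 0.96 and 0.77 TPM. This entry also lacks exon 10 of Axl-201, so it differs from that transcript by more than intron bases. The short entry Axl-206, which runs into introns 15 and 18, held 1.47, 0.43 and 0.58 TPM. Axl-203 keeps 73 bases of intron 19 and held 9.26, 0.83 and 0.83 TPM, the widest gap between replicate 1 and the rest among these entries. These models contain exons of Axl-201 as well, and reads within such exons are divided between entries by the quantification, so the values are not counts of intron reads.

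Of Axl's TPM, 30.9% lay in coding transcripts in replicate 1, 56.6% in replicate 2 and 62.1% in replicate 3. The medians over the 5705 comparison genes were 43.7%, 44% and 50%, so by this measure Axl was below the median in replicate 1 and above it in the other libraries. Replicate 1 was lower by 28.5 percentage points (replicate 1 minus the mean of the others, -28.5), where the median gene had -2.42 and 2.33% of genes fell further. Counted in reads, where long transcripts weigh more, the coding share was 67.8%, 88.1% and 92.4%, above the medians of 62.1%, 63.4% and 68.5% in each library. In the read-based tables it was 17.2%, 22.5% and 32.7% of TPM, below the medians of 38.5%, 37.3% and 41.2% in each library. Replicate 1 had the lowest coding share of Axl by all 3 measures, while the size of the gap and the side of the median depended on the measure.

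**Figure D3:**
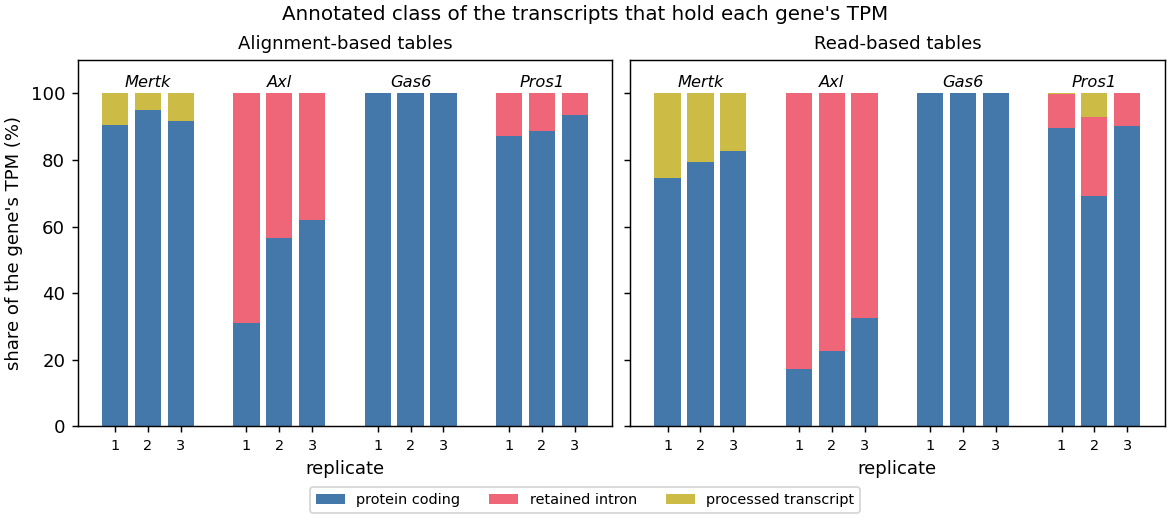
Share of each gene's TPM, in percent, by annotated transcript class in replicates 1, 2 and 3, from alignment-based (left) and read-based (right) tables. Coding transcripts hold most of the TPM of Mertk, Pros1 and the single-transcript gene Gas6, whereas the retained-intron share of Axl is 69.1% in replicate 1 of the alignment-based tables and lower in the other libraries. Tyro3, with 1 count in all, is left out.

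Besides their ends, the 2 full-length coding forms of Axl differ by exon 10, a stretch of 27 bases and 9 codons (chr7:25773099-25773125, minus strand) that Axl-202 lacks, leaving 879 of 888 codons. The alignment-based tables put all coding Axl RNA in Axl-201 and list Axl-202 at 0 TPM, while the read-based tables gave Axl-202 1.98, 0 and 3.74 TPM beside 10.2, 4.54 and 4.21 for Axl-201. The retained-intron entry Axl-205 lacks exon 10 too, so reads over the Axl-202 junction can be assigned to either entry. The mRNA around the junction, from GENCODE M21 transcripts, is shown because these bases tell the 2 full-length coding forms apart. Exon 10 is in capitals, with 15 bases of exon on either side in lower case.

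Axl-201: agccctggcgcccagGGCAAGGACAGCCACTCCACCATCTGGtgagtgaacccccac

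Axl-202: agccctggcgcccagtgagtgaacccccac

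In replicate 1 the read-based tables also gave 2.09 TPM to Axl-204, a short coding entry that the alignment-based tables list at 0. The quantifications thus assigned the coding Axl RNA of replicates 1 and 3 differently, and both put replicate 1 highest for the gene as a whole.

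The read-based tables put Axl higher throughout, at 82.6, 20.2 and 24.3 TPM. On the log2(TPM + 1) scale the read-based value exceeded the alignment-based one by 0.89 ± 0.158 (SD, n = 3), 1.85-fold, in 3 of 3 libraries. The exact two-sided sign-flip permutation test gave p = 0.25, the smallest 3 libraries can give, and 0.938 after Benjamini-Hochberg adjustment over the 5 members. Detected protein-coding genes had a median difference of 0.34, so read-based values were above alignment-based ones for the typical gene too. Mertk, Gas6, Pros1 and Tyro3 differed by 0.01, -0.04, -0.04 and -0.00 on the same scale, each less than its SD between libraries.

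RefSeq's window of 250 bases before the start of Axl (GRCm38.p6, chr7:25788734-25788983, minus strand, printed along the gene) is shown because Axl is the member that set the libraries apart. Capitals mark, from the 5′ end, a PU.1 core on the opposite strand and a GC box.

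Axl: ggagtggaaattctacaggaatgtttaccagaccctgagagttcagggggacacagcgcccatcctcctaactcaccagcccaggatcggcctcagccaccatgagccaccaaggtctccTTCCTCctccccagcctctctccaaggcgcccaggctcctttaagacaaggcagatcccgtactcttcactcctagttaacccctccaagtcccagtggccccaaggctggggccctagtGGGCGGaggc

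Axl was the only member with the PU.1 core GAGGAA in this window, the letters bound by a transcription factor that defines macrophages, and 23.3% of promoter windows hold it. The window had 60% GC and 5 CpG. It held neither TTCNNNGAA nor GAAANNGAA, the letters of the interferon elements.

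Interferon-stimulated genes were looked at beside Axl after the genes that were high in replicate 1 had been seen, so their values are a description of a list chosen on these libraries. Of 30 common interferon-stimulated genes, 29 were detected. Of these, 28 were highest in replicate 1, as were 22.2% of detected protein-coding genes, and 1 was not. Their median log2 difference between replicate 1 and the mean of the others was 0.74, against -0.19 for all detected protein-coding genes. Axl at 1.64 was above 28 of the 29, and Cmpk2, a nucleotide kinase of the antiviral response, was higher at 1.92. Cmpk2 stood at 482, 93.7 and 159 TPM in replicates 1, 2 and 3, and Rsad2, which encodes the antiviral protein viperin, at 1319, 367 and 651 TPM. The part of these genes in the Axl difference was not tested. The labelled starting amount also differed between libraries and cannot be told apart from the library.

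**Figure D4:**
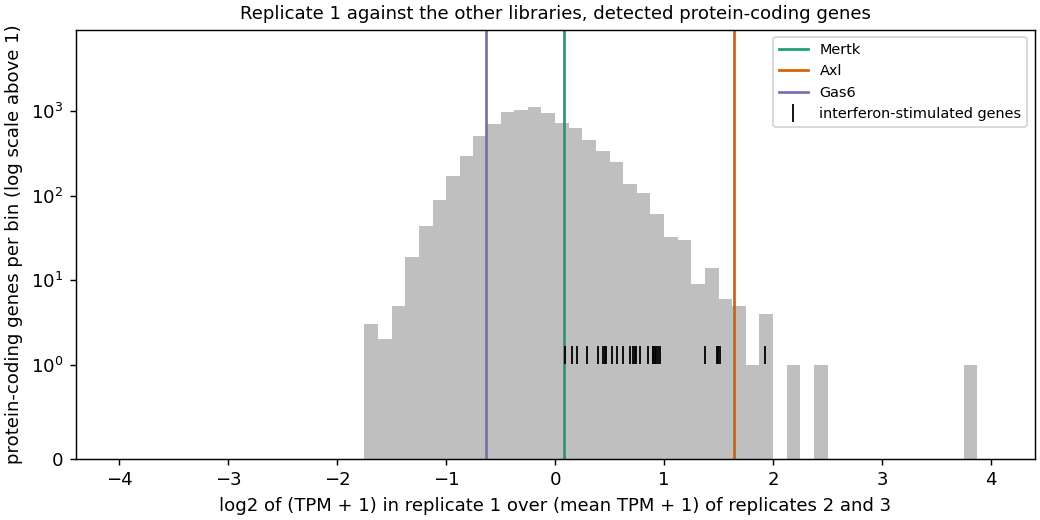
Number of detected protein-coding genes (vertical axis, log scale above 1) by log2 of (TPM + 1) in replicate 1 over (mean TPM + 1) of replicates 2 and 3, with Mertk, Axl and Gas6 as lines and the 29 interferon-stimulated genes as ticks at an arbitrary height. Axl at 1.64 lies in the upper tail, Mertk at 0.08 and Gas6 at -0.64 lie within the bulk, and the ticks lie to the right of 0.

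Markers of endothelial and stromal cells, some of which use Axl, were low. Of these 11 markers 1 was detected, and they summed to 10.2, 6.79 and 4.81 TPM in replicates 1, 2 and 3. The sum was highest in replicate 1, as Axl was, and Kdr, a receptor of vascular endothelial growth factor, gave 8.92 TPM of it there and 2.27 and 2.01 TPM in the others. By alignment the stromal markers Col1a1, Col1a2, Col3a1, Pdgfra and Dcn were at 0 TPM in replicate 1, and Pdgfrb was at 0.03. Pecam1 stood at 1.09, 2.29 and 0.98 TPM in replicates 1, 2 and 3, and Cdh5 at 0.15, 0.59 and 0.05. The read-based tables listed Pecam1 at a mean of 7.92 TPM and Kdr at 5.99. Tie1, Col1a1 and Pdgfra were at 1.11, 1.08 and 1.07 TPM there, and the rest of the list was below 1 TPM. The 8 dendritic cell markers, of which 1 was detected, summed to 3.64, 6.14 and 5.65 TPM, a sum lowest in replicate 1. That order follows the detected one, Batf3, at 1.65, 4.61 and 4.68 TPM in replicates 1, 2 and 3. Clec9a, at 1.16, 0.31 and 0.18 TPM, and Siglech, at 0.1, 0 and 0.03, were highest in replicate 1.

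Tyro3 was the lowest member (ENSMUSG00000027298.17, chromosome 2, 119797733 to 119818104, plus strand). It encodes the TAM receptor known best from neurons, and lies on the same chromosome as Mertk. It had 0 counts in replicates 1 and 2 and 1 count in replicate 3, listed at 0, 0 and 0.02 TPM, and the read-based tables also had 1 read, in replicate 3. That read was assigned to Tyro3-207, a retained-intron entry, and none to a coding transcript. A count of 0 allows up to 3 counts, which on its main coding transcript would be 0.0580 TPM in replicate 1 and 0.0446 in replicate 2, counting error only. The 1 count of replicate 3 has an exact 95% Poisson interval of 0.0253 to 5.57 counts. The limits in replicates 1 and 2 lie below the Pros1 values of 0.86 and 1.6 TPM there. The deposited posterior mean TPM, a second estimate in the same tables, read 0.97, 0.96 and 1.03 for Tyro3 at those counts. Its median was 0.89 over 293 protein-coding genes with no count in any library and at least 8 transcripts, the number Tyro3 has, so at this level it gives no information on expression.

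The 250 bases before the RefSeq start of Tyro3 (GRCm38.p6, chr2:119799264-119799513, plus strand) are shown as the window of the member at or near 0, with GC boxes in capitals.

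Tyro3: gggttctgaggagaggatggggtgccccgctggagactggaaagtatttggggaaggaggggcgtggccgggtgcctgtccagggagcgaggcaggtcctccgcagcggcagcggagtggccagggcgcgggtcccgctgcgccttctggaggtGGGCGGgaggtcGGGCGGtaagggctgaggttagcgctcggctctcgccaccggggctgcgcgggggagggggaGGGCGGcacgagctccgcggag

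This window had the highest GC content of the 5 members, 73.2%, and 24 CpG, more than 88.0% of promoter windows. It held 3 GC boxes, as many as the Mertk window at the other end of the expression range. The windows of Gas6 and Pros1 held 4 and 5, and Pros1 alone had a match to TTCNNNGAA, which 7.02% of windows hold.

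Gas6 was the higher of the 2 ligand genes (ENSMUSG00000031451.6, chromosome 8, 13465374 to 13494490, minus strand). It encodes the ligand that binds all 3 TAM receptors. Its level was 10.9 TPM in replicate 1, 15.2 in replicate 2 and 19.9 in replicate 3, from 353, 630 and 761 expected counts. The mean was 15.4 ± 4.49 TPM (SD, n = 3), rank 3289, with a coefficient of variation of 29.2% where counting error gives 4.15%. Replicate 1 was lowest for Gas6 and highest for Axl and Mertk. Being lowest in replicate 1 was common, shared by 50.3% of detected protein-coding genes. The only annotated Gas6 transcript is coding and spans 15 exons, so no intron sequence could be assigned to the gene. The last 3100 bases of its span overlap Tmem255b on the opposite strand, whose expected count was 0 in each library. Read-based counts of Tmem255b were 4, 12 and 2 in replicates 1, 2 and 3. The read-based tables gave Gas6 11.9, 14.7 and 17.2 TPM, the same order of libraries.

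Pros1 was close to the detection threshold (ENSMUSG00000022912.8, chromosome 16, 62854307 to 62929346, plus strand). It encodes protein S, an anticoagulant that also activates Mertk and Tyro3. Its level was 0.86 TPM in replicate 1, 1.6 in replicate 2 and 1.54 in replicate 3, from 33, 80 and 74 expected counts. Replicates 2 and 3 were alike and replicate 1 lower, and the credible intervals, 0.663 to 1.71, 1.29 to 2.26 and 1.25 to 2.42 TPM, overlapped. The mean of 1.33 ± 0.411 TPM (SD, n = 3) placed Pros1 above 59.5% of protein-coding genes, and the coding share was 89.8% ± 3.28.

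Within the libraries, receptor and ligand levels were set against each other as the difference in log2(TPM + 1), with an exact two-sided sign-flip permutation test over the 3 libraries, for which 0.25 is the smallest possible p. Mertk exceeded Axl by 2.63 ± 0.947 (SD, n = 3), 6.19-fold, and the gap was 1.58 in replicate 1 and 3.42 and 2.89 in the others. That gap was 1.75 in the read-based tables and 3.51 over protein-coding transcripts. Mertk exceeded Gas6 by 2.89 ± 0.458, 7.44-fold. Gas6 exceeded Pros1 by 2.79 ± 0.22, 6.91-fold, and Axl exceeded Pros1 by 3.05 ± 1.25, or by 3.98 in the read-based tables and 2.15 over protein-coding transcripts. Each of these held in 3 of 3 libraries, with an exact p of 0.25 and 0.278 after Benjamini-Hochberg adjustment over the 10 pairs, so none passed a threshold of 0.05 that this test cannot reach with 3 libraries. Axl and Gas6 were not separated: the difference was 1.79 in replicate 1 and -0.55 and -0.44 in replicates 2 and 3, a mean of 0.26 ± 1.32 (exact p = 1). Tyro3 was below each of the others in every library, and no fold is given against its counts of 0 and 1.

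Genes inside the Mertk span were counted apart from it. Gm14011, an antisense RNA whose exons lie in introns 5 and 6 of Mertk (chromosome 2, 128751271 to 128753705, minus strand), had 4, 5 and 4 expected counts, or 2.18, 3.73 and 3.1 TPM, and 23.5, 39.7 and 21.9 TPM in the read-based tables. The sources used here do not say whether counting used strand, so intronic Mertk reads and Gm14011 reads cannot be told apart. Gm23172, a small nucleolar RNA of 124 bases in intron 13, was listed at 336, 0 and 0 TPM from 7, 1 and 0 expected counts, a value set by its effective length of 1.54 bases in replicate 1 and 0 in the others. The read-based tables gave Gm23172 336, 257 and 111 TPM.

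The detected gene nearest to each detected member over the 3 libraries was found by the distance in log2(TPM + 1) among 8637 other protein-coding genes, as a measure of like levels. For Mertk it was Ccdc50 at 123, 120 and 119 TPM, a distance of 0.0732. For Axl it was Hivep1 at 31.6, 11.2 and 15.9 TPM, a distance of 0.391, so its neighbour was farther away than those of the other members. For Gas6 it was Rplp2 at 10.8, 15.6 and 19 TPM, a distance of 0.0757.

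Genes around the TAM receptors were counted list by list at the same detection threshold, which 39.2% of protein-coding genes passed. List medians are of mean TPM over the 3 libraries, beside 0.367 TPM for all protein-coding genes and 9.95 TPM for detected ones. Of other bridging molecules and receptors for apoptotic cells, 15 of 20 passed the threshold and the list median was 14.5 TPM. Stab1, a scavenger receptor that binds phosphatidylserine, stood at 449 ± 228 TPM (SD, n = 3), Lrp1, a receptor for calreticulin-bearing cells, at 201.4 ± 43.8, and Itgav, the integrin chain that takes up Mfge8-coated cells, at 121 ± 44.5. Mertk, at 118 ± 4.37 TPM, was thus within the spread of Itgav. Mfge8 itself was at 1.44 ± 0.262 TPM and Havcr1, a phosphatidylserine receptor, had 0 counts.

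Of engulfment genes downstream, 15 of 17 passed the threshold and the list median was 12 TPM. By alignment Dock2, an activator of Rac in blood cells, stood at 329 ± 15.3 TPM and its helper Elmo1 at 86.8 ± 7.84. Vav1, another exchange factor, was at 116 ± 32.2. Gulp1, an adaptor, was lowest at 0.0167 TPM. The order rests on the quantification: Rac2 was at 48.9 ± 10.6 TPM by alignment. In the read-based tables Rac2 was at 230 ± 73.2 TPM, above Vav1 at 136 ± 45.0.

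Of TAM signalling partners and feedback genes, 14 of 16 passed the threshold and the list median was 23.1 TPM. Among them the kinase subunit gene Pik3r1 stood at 145 ± 44.8 TPM and Socs3, a cytokine feedback inhibitor, at 95.8 ± 20.7. Ifnar1 and Ifnar2, the interferon receptor chains, were at 73.9 ± 13.2 and 55.7 ± 5.90 TPM. Socs1, the companion of Socs3 in TAM feedback, was at 1.73 ± 0.144 TPM, and Twist2, a repressor described downstream of Axl, had 0 counts. Ptpn1 was at 76.3 ± 11.7 TPM by alignment and at 279 ± 10.2 in the read-based tables. Pik3r1 and Socs3 were at 171 ± 53.6 and 77.0 ± 19.2 TPM in the latter.

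Receptor shedding depends on Adam17, which cuts Mertk from the cell surface, and on its partner Rhbdf2. In the alignment-based tables these stood at 135 ± 18.8 and 109 ± 13.0 TPM, near the level of Mertk. Read-based values were 209.7 ± 37.9 TPM for Adam17 and 131 ± 24.2 for Rhbdf2, beside 119 ± 14.7 for Mertk. By alignment Adam10, a sheddase of Axl, was at 8.51 ± 1.42 TPM and the inhibitor Timp3 at 0.05. The read-based tables put Timp3 at 11.2 ± 4.93 TPM, so its level rests on the quantification. In the shedding list 3 of 5 genes passed the threshold, 4 in the read-based tables, and the median was 8.51 TPM.

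Ligand maturation needs carboxylation by Ggcx, found at 5.25 ± 1.53 TPM. In that list 6 of 8 passed the threshold and the list median was 5.01 TPM, led by the protease gene Furin at 37.3 ± 7.70, Pdia3 at 6.49 ± 0.946 and Aifm2, a vitamin K reductase, at 5.32 ± 2.11, and Nqo1 was lowest at 0.09. Of other Gla protein genes 5 of 13 passed, close to the share of all protein-coding genes, and the median was 0.787 TPM. That count was 8 in the read-based tables and 3 over protein-coding transcripts. Prrg2 was highest at 11.2 ± 0.795 TPM, then F10, coagulation factor X, at 9.37 ± 4.31 and Prrg1 at 3.12 ± 1.01, and Proc, Bglap and Prrg3 had 0 counts, with Prrg3 at 3.82 TPM in the read-based tables. In the alignment-based tables Gas6, at 15.4 TPM, was above the other Gla protein genes listed by mean level, though not in replicate 1, where F10 was at 13.7 and Prrg2 at 11.4 TPM beside its 10.9, and Pros1, at 1.33 TPM, was below 5 of them. In the read-based tables F10, at 19.7 ± 8.03 TPM, was above Gas6, at 14.6 ± 2.64.

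Of nuclear receptors and factors linked to Mertk or Axl, 14 of 17 passed the threshold and the list median was 11 TPM. Irf1 was highest at 781 ± 147 TPM, then Irf3 at 74.2 ± 15.5 and Nr1h3, the liver X receptor alpha that is known to drive Mertk in macrophages, at 73.9 ± 26.5. Fosl1, an AP-1 subunit, had 0 counts. Of genes for phosphatidylserine exposure 8 of 10 passed the threshold and the list median was 11 TPM. The flippase gene Atp8a1 stood at 168 ± 40.5 TPM, the scramblase gene Ano6 at 51.1 ± 5.98 and the flippase gene Atp11a at 29.4 ± 3.96, and Xkr4 had 0 counts.

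**Figure D5:**
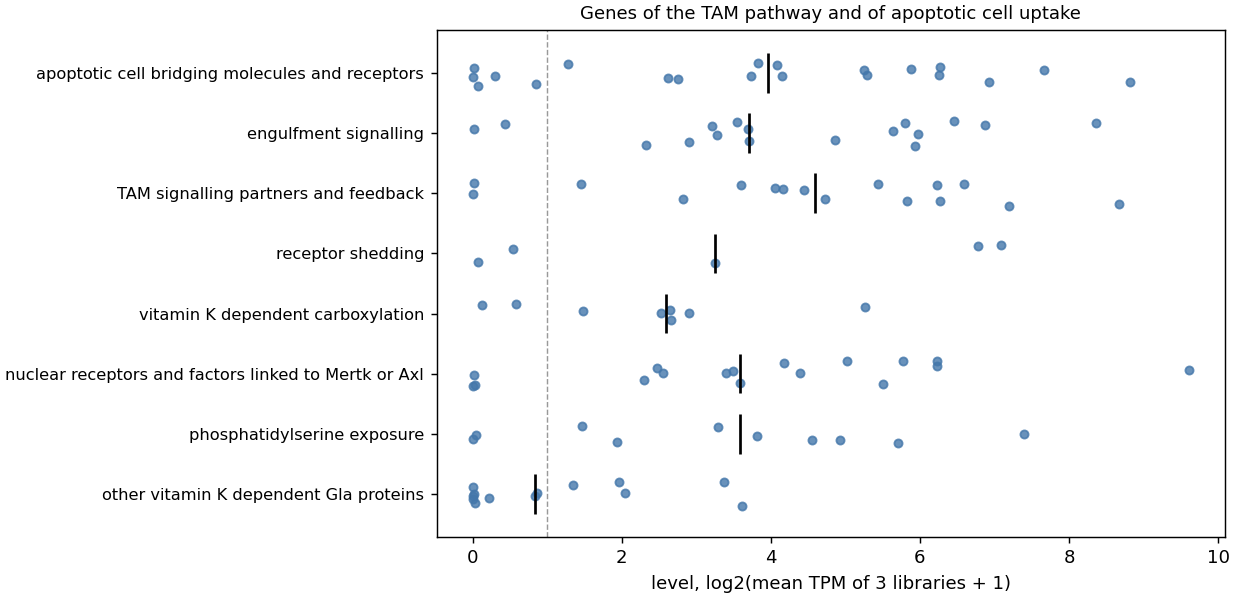
Level of each gene of the 8 lists as log2(mean TPM of 3 libraries + 1), with the list median as a black line and 1 TPM as a dashed line (vertical jitter has no meaning). Most genes lie to the right of the dashed line in every list but that of other Gla proteins, whose median is 0.787 TPM.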

How the data were processed

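Total RNA-seq of chromatin-fraction RNA, after removal of ribosomal RNA, was available for 3 libraries of 1 group. Per the text deposited with each library, the authors used mouse build mm10 with GENCODE M21. The sources used here name no aligner or quantification program and do not state the use of strand. The deposited expected counts are estimated reads per gene or transcript. The deposited TPM values are corrected for effective length, and the posterior mean TPM and its credible interval come from the same tables, with a level not given there. The read-based tables hold estimated counts and TPM per transcript, which were summed per gene. From these, log2(TPM + 1) differences (pseudocount 1), detection at 1 TPM in every library, CPM, exact sign-flip permutation tests with Benjamini-Hochberg adjustment, and TMM factors (edgeR 4.0.16 in R 4.3.3) were computed, the rest with Python 3.11.15. The procedure was tested on simulated data. Promoter windows came from RefSeq, matched by symbol for 5 of 5 members. The named genes were the 5 members, the 3 highest and the lowest of each related list with those at 0 counts, overlapping genes and the nearest detected gene. Hnrnpul1, Ifnar1, Ifnar2, Ggcx, Mfge8, Socs1, Rac2, Ptpn1, Kdr, other markers and the interferon-stimulated genes were added after their values were seen. The values of 1 gene that this rule names are not reported here. Members and lists were chosen with earlier results of these data known. With 1 group, no comparison of treatments was made.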

Additional observations from a re-analysis of the deposited data

How the results depend on the processing

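Over 33 results and 223 alternative settings, 6 changed sign or fell to 0, 14 levels, shares or counts moved, and 203 did not. A level or share moved if it changed by more than 1 SD between libraries, a count if by more than 1.5 times, and a log2 difference was judged by its sign alone. Within these bounds some values still changed widely: the mean level of Axl was 9.03 TPM over protein-coding transcripts and 12.2 without replicate 1, and Tyro3 over Pros1, -1.20, became -0.36 with posterior means and -3.71 with a pseudocount of 0.1. The difference of Axl over Gas6 became -0.73 with protein-coding transcripts and 1.20 in read-based tables, and ran from -0.50 without replicate 1 to 0.67 when libraries were left out in turn. The read-based minus alignment-based difference ran from -0.0487 to 0.0734 for Mertk, -0.00588 to 0 for Tyro3, -0.125 to 0.0323 for Gas6 and -0.109 to 0.0356 for Pros1 on leaving out libraries. The mean level of Mertk was 109 TPM over protein-coding transcripts and 109.6 as posterior mean, that of Axl 42.4 TPM in the read-based tables and that of Tyro3 0.987 as posterior mean. The coding share in read-based tables and as a share of expected counts was 78.9% and 95.1% for Mertk, 24.1% and 82.8% for Axl, and 83.0% and 97.7% for Pros1. At a threshold of 5 TPM, 2 vitamin K carboxylation genes and 2 other Gla protein genes were detected, and of the latter 8 in read-based tables and 3 with protein-coding transcripts. Apart from what these settings are built on, the cause was not tested. The sign-flip test used here gives no p below 0.25 with 3 libraries, and Pros1 and Tyro3 rest on few counts.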

Other observations

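Replicate 1 was at least 2-fold above both other libraries for 56 detected protein-coding genes, and Axl was the sixteenth of them by its ratio to the higher of the other libraries, 2.67. The genes ahead of it, chosen after their values were seen, included Gbp10, an interferon-induced GTPase, at 33.2, 1.5 and 1.33 TPM in replicates 1, 2 and 3, Ms4a4c at 266, 45 and 53.7 TPM, Il15ra, the interleukin 15 receptor alpha chain, at 216, 69.7 and 55.8 TPM, C3, the central complement component, at 348, 102 and 125 TPM, and the chemokine gene Cxcl10 at 658, 226 and 242 TPM. The other genes ahead of Axl were Ifit1bl1, Hmgn3, Gm29094, Phb, Kdr, Cmpk2, Tdgf1, Heatr9, Tmprss2 and Apol9b. Of these, the endothelial marker Kdr stood at 8.92, 2.27 and 2.01 TPM in replicates 1, 2 and 3, and Phb at 67.0, 19.2 and 15.2. Mertk was not among the 56.

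The deposited posterior mean TPM had a median of 0.12 over 7014 protein-coding genes that had no count in any library.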
